A study of Mus musculus with 2 samples.

Results

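Heparan sulfate synthesis and editing enzymes were examined in mouse embryonic fibroblasts (MEFs) that carried or lacked an intact gene for BCL11B, a zinc finger transcription factor. The set was given as 10 genes by name, and every probe set was taken whose platform annotation names exactly 1 gene and that gene is in the set. This gave 22 probe sets for 9 of the 10 genes, among 18193 genes with a probe set of their own in the whole table. Ndst1 was not analysed here. The members were picked by function with earlier log2 differences of these same arrays in view, in which Hs6st2 already stood among the highest genes. Its difference is therefore a description of the arrays. The study compared BCL11B+/+ with BCL11B-/- primary MEFs, both from C57BL/6 embryos at embryonic day 12.5 and both used at passage 2. Both cultures were kept for 12 h in adipocyte differentiation medium with 10% fetal bovine serum and the PPARγ agonist pioglitazone at 10 μM. The medium also held insulin at 10 μg/ml, 1 μM dexamethasone, 0.5 mM methylisobutylxanthine and ascorbic acid. The knockout was carried by the whole embryo and not by a chosen cell type, and the number of embryos behind each culture is not given in the sources used here. A single Affymetrix array, Mouse Genome type, was run for each genotype.

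Heparan sulfate is a long sugar chain of alternating glucosamine and uronic acid that is built in the Golgi on core proteins of the cell surface and the matrix. EXT1 and EXT2 lengthen the chain together, NDST enzymes replace acetyl by sulfate groups, and the 2-O-, 6-O- and 3-O-sulfotransferases then add sulfate at chosen positions. The extracellular sulfatases SULF1 and SULF2 take 6-O-sulfate off the finished chain. The resulting sulfate pattern is known to set how fibroblast growth factors (FGFs), Wnts, bone morphogenetic proteins and other heparin-binding ligands meet their receptors.

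The 6-O-sulfotransferase genes Hs6st1 and Hs6st2 encode related enzymes that place the group which SULF1 and SULF2 remove. Their upstream sequences are shown because they are the pair in which 1 gene passed 1.5-fold and the other did not. The sequences are the 250 bases before each annotated start in RefSeq, build GRCm38.p6, read 5′ to 3′ along the gene, and capitals mark matches to the motifs named after them. Hs6st1 has 1 start in the table, on the plus strand, with its window at chr1:36068150-36068399. Hs6st2 has 2 starts on the minus strand of the X chromosome, with windows at chrX:51681603-51681852 for the first and chrX:51680478-51680727 for the second.
Hs6st1: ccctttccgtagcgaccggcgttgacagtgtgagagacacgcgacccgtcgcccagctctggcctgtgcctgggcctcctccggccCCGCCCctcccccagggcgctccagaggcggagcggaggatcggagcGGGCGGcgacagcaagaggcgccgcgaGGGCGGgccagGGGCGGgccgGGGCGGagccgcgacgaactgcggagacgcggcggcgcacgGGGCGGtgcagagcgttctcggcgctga
Hs6st2 start 1: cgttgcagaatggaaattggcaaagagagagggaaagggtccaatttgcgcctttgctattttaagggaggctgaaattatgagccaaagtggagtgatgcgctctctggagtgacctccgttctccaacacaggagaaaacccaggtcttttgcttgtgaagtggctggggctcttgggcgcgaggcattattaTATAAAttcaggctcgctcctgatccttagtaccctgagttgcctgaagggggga
Hs6st2 start 2: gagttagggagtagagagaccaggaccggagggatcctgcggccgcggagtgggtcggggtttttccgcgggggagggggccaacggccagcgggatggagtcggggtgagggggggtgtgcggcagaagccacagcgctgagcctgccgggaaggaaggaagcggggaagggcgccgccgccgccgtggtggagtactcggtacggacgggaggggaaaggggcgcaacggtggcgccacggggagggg

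The windows were searched on both strands for 5 motifs. These were the BCL11 family motif, with the letters TGACCA, the TCF/LEF motif, with the letters CTTTGA, and the C/EBP motif, with the letters TTGCNNCAA. The GC box was searched as GGGCGG. The TATA box, searched as TATAAA, was added after the sequences had been seen. No matches of different motifs overlapped. The Hs6st1 window held 6 GC boxes, from 164 to 28 bases before the start, and had 76.4% G and C with 37 CpG dinucleotides. The first Hs6st2 window held no GC box and a TATA box match that began 55 bases before the start, with 50% G and C and 7 CpG. The second Hs6st2 window held none of the 5 motifs and had 72% G and C with 26 CpG. Over all 32851 windows of this length the median was 52.4% G and C with 6 CpG, 32.7% held a GC box and 12.4% held a TATA box match. The BCL11 family letters stood in 11.4% of all windows, the TCF/LEF letters in 13.8% and the C/EBP letters in 1.74%, and none of these 3 stood in any of the 9 windows of the 7 members in the table. Besides Hs6st1, GC boxes were matched 3 times before Ndst2 and on a single occasion each before Hs2st1 and the first of 2 Sulf2 starts. The first Sulf2 window also held a TATA box match, 244 bases before the start. A match describes letters in a window and is not a binding site.

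Bcl11b itself was 2.26- to 2.97-fold lower in BCL11B-/- MEFs over its 4 probe sets. In BCL11B-/- MEFs these still read 7.40, 6.33, 5.54 and 5.32, all above 5 log2 units, and the deleted exons are not given in the sources used here. All 12 fibroblast markers, among them Col1a1, Col3a1, Vim and Pdgfra, had a mean above 5 log2 units. By the 1.5-fold rule used below, 3 of them (Dcn, Thy1 and Twist2) were lower in BCL11B-/- MEFs and 1 (S100a4) was higher. The median over all probe sets was 5.28 on both arrays, and β-actin probe sets at the 3′ end read above those at the 5′ end, a gap that grows as RNA degrades, by 1.64 log2 units in BCL11B+/+ and 1.47 in BCL11B-/- MEFs. The same gap for GAPDH was 0.48 and 0.52, in the opposite order. The probe set with the higher or highest mean stood for a gene. A limit of 5 log2 units on this mean, below which values hold mostly background, left 12331 genes. All 9 members passed this limit and read above 5 on both arrays. With 1 array per genotype there were no replicates, so no p-value is given, 1.5-fold is the rule of size, and the number of arrays limits the precision. As a technical yardstick, probe sets of the same gene gave differences whose SD, pooled over 5543 genes, was 0.15 log2 units, which holds no variation between cultures. Every difference below is BCL11B-/- minus BCL11B+/+ on the log2 scale.

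Of the 9 measured enzymes, only Hs6st2 was higher in BCL11B-/- MEFs by the 1.5-fold rule. The count of lower enzymes was 0, and 8 were neither. Over all genes 1.61% were higher and 1.75% were lower by the same rule. Because the set was proposed with the value of Hs6st2 known, nothing is read from its count against this background. The median difference of the 9 enzymes was 0.10, against 0.00 over all genes, and it was 0.0037 when all probe sets of each gene were averaged. Of the 9 differences, 6 were above 0 and 3 below, and 4 were smaller than the probe set SD. At 1.2-fold 2 enzymes were higher, Hs6st2 and Ext1, and 2 were lower, Sulf2 and Hs3st1, where 8.81% of all genes were higher and 7.8% were lower. Of the 22 probe sets 18 had a mean of at least 5, of which 2 were at least 1.5-fold higher, both of Hs6st2, and 1 was lower, of Sulf2. Among all probe sets above this limit 1.45% were higher and 1.61% were lower.

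**Figure D1:**
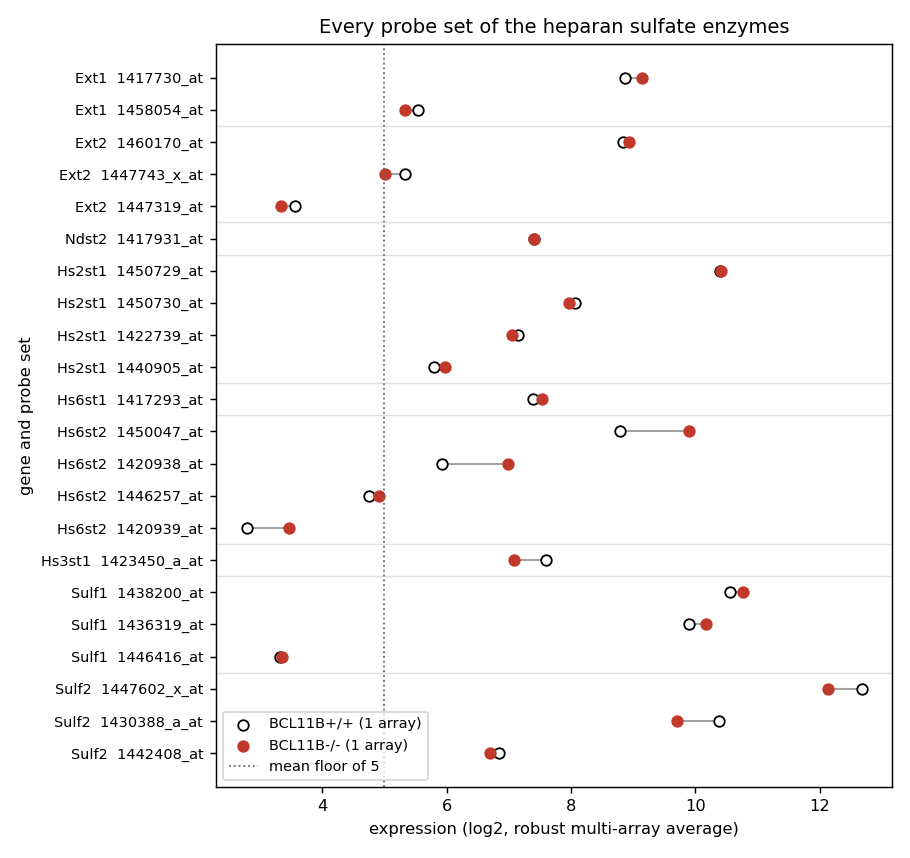
Expression on the log2 scale (horizontal axis) of each of the 22 probe sets of 9 heparan sulfate enzymes (vertical axis, brightest first within a gene) in BCL11B+/+ (open circles) and BCL11B-/- MEFs (filled circles), 1 array each, so no error is drawn. The widest gaps are those of the 2 bright probe sets of Hs6st2 (8.79 and 9.91 on the brightest). The filled circles of Sulf2 and Hs3st1 lie to the left, as do those of the dim Ext1 and Ext2 probe sets.

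The brightest probe set of Hs6st2 (1450047_at) read 8.79 in BCL11B+/+ and 9.91 in BCL11B-/- MEFs, a difference of 1.11 or 2.16-fold. This was the 22nd highest difference of the 12331 genes. A second probe set (1420938_at) read 5.92 and 6.99, a difference of 1.07. Both bright probe sets thus gave nearly the same size, with an SD of 0.03 between them. The third (1420939_at) read 2.78 and 3.46, with a difference of 0.68 at a level where background prevails. These 3 probe sets were designed on the same source sequence and are not independent of each other. The fourth (1446257_at), designed on another sequence, read 4.75 and 4.92 and differed by only 0.17, also under the limit of 5. As the mean over all 4 the difference was 0.76. Hs6st1, the relative of Hs6st2, was measured by 1 probe set, which read 7.39 and 7.53. Its difference of 0.14 was within the probe set SD. Whether the change of Hs6st2 differs from that of Hs6st1 between cultures cannot be tested with 1 array per genotype.

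Sulf2 and Sulf1, the enzymes that trim 6-O-sulfate outside the cell, differed in opposite directions, and neither passed 1.5-fold on its brightest probe set. Probe set 1447602_x_at of Sulf2 read 12.68 in BCL11B+/+ and 12.14 in BCL11B-/- MEFs, a difference of -0.53 or 1.45-fold, just short of the rule. Its second probe set (1430388_a_at) read 10.38 and 9.71, a difference of -0.67, which passes it. The third (1442408_at) read 6.85 and 6.70, a difference of -0.15. All 3 had a lower value in BCL11B-/- MEFs. The third is the dimmest and the only Sulf2 probe set without a suffix that marks possible shared or variant targets (_x for probes that can bind other transcripts, _a for several transcripts of 1 gene). Sulf1 read 10.56 and 10.76 on its brightest probe set, a difference of 0.21, and 9.89 and 10.18 on its second, a difference of 0.28. The third probe set of Sulf1 read 3.31 and 3.36, a level of background. By rank, the Sulf2 difference was the 255th lowest and the Sulf1 difference the 1567th highest of the 12331 genes.

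Hs3st1, which makes the rare 3-O-sulfated site that antithrombin binds, read 7.59 in BCL11B+/+ and 7.09 in BCL11B-/- MEFs with the only probe set it has (1423450_a_at). The difference of -0.51, or 1.42-fold, was the 283rd lowest and fell short of 1.5-fold. There was no further probe set to set it against, and this one carries the _a suffix.

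The enzymes that build the chain and start its sulfation differed little. Ext1, a subunit of the chain polymerase, read 8.87 and 9.14 with a difference of 0.27, but its dimmer probe set read 5.53 and 5.32 with a difference of -0.21. Ext2, its partner, read 8.84 and 8.94 with a difference of 0.10, and its other probe sets at 5.32 and 3.56 in BCL11B+/+ MEFs gave -0.31 and -0.24. For both subunits the bright probe set lay slightly above 0 and every dim one below. Ndst2, an N-deacetylase and N-sulfotransferase best known from mast cells, read 7.41 and 7.40 with a difference of -0.01. Hs2st1, the single 2-O-sulfotransferase, read 10.40 and 10.41 with a difference of 0.01. The other 3 probe sets of Hs2st1 gave -0.09, -0.09 and 0.18, on both sides of 0.

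**Figure D2:**
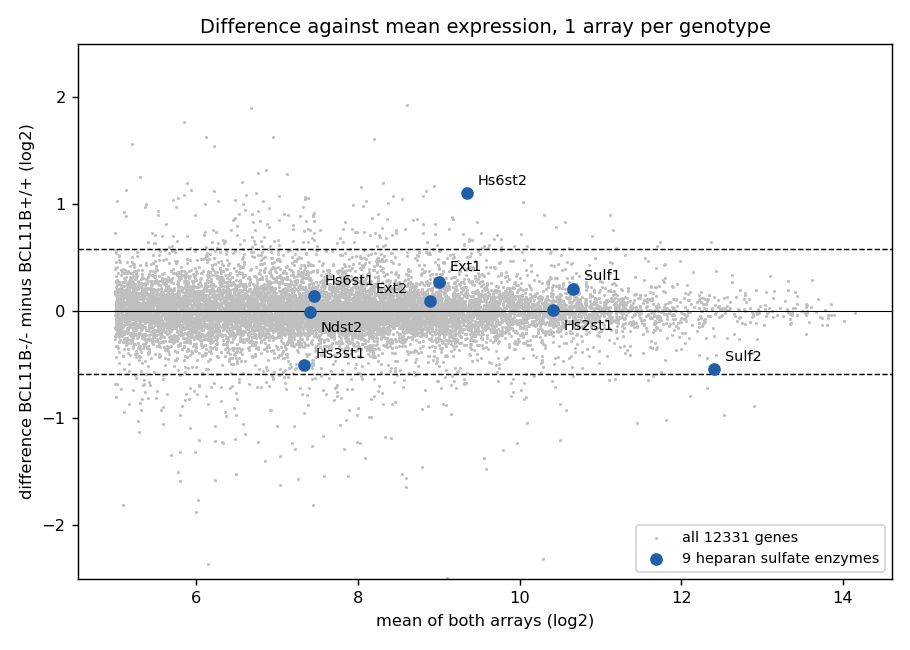
Difference between BCL11B-/- and BCL11B+/+ MEFs (vertical axis, log2) against the mean of both arrays (horizontal axis, log2) for genes with a mean of at least 5 (grey, 3 of 12331 lie beyond the axis of 2.5) and the 9 heparan sulfate enzymes (blue). Dashed lines mark 1.5-fold, and Hs6st2 with 1.11 is the enzyme outside them, while Sulf2 with -0.53 and Hs3st1 with -0.51 lie just inside.

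The rest of the heparan sulfate pathway was read from 5 further lists with 58 genes, of which 46 had a mean of at least 5. Among these, 1 gene was higher by 1.5-fold or more, 0 were lower and 45 lay between, with a median difference of 0.05. The higher gene was Pxylp1, a phosphatase that acts on the xylose of the linker between core protein and chain, which read 8.19 and 8.96 with a difference of 0.77. Its second probe set differed by 0.62 and its dimmest by 0.01. The other 5 linker enzymes lay between -0.14 (B4galt7) and 0.00. Among 7 other enzymes of chain synthesis none passed the rule. Glce, the epimerase that turns glucuronic into iduronic acid, was lowest with -0.41 and Hs3st6 highest with 0.16. The second probe set of Glce differed by only -0.15 and its dimmest, under the limit of 5, by 0.08. Hs6st3, the remaining 6-O-sulfotransferase, read 3.87 on both arrays, under the limit of 5. Among 11 genes that supply or clear the sulfate donor and the sugar nucleotides none passed, from Bpnt1 with -0.19 to Papss2, a synthase of the sulfate donor, with 0.29. Among 10 breakdown genes none passed, with Sgsh lowest at -0.13 and Ids, the iduronate sulfatase, highest at 0.47.

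Among 12 core proteins none passed the rule and the median was 0.20. Tgfbr3 (betaglycan), which can carry such chains, was lowest with -0.50 on its brightest probe set, while its dim second probe set gave -0.63. Sdc4 (syndecan-4) was highest with 0.43, and its 2 probe sets gave 0.40 and 0.43. Chondroitin and dermatan sulfate are built on the same linker by other enzymes. The 18 genes listed for building or breaking down these chains were all measured, and none passed the rule. They lay between -0.24 (Csgalnact1) and 0.46 (Chst7), with a median of -0.05.

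Heparan sulfate is a co-receptor for FGFs, so their genes were read as well. Among 5 FGF ligands with a mean of at least 5, Fgf7, a growth factor that acts on epithelial FGFR2, was higher. It read 9.36 and 10.07 with a difference of 0.71, and its second probe set differed by 0.45. The other 4 above the limit lay between Fgf9 with -0.06 and Fgf5 with 0.36. A further 4 ligands, among them Fgf1 and Fgf2, were below the limit. None of 4 FGF receptors above the limit passed, with Fgfr1 at -0.41 and Fgfr3 at 0.40 as the lowest and highest, and Fgfr4 was below it. The other probe sets of Fgfr1 differed by only -0.12 and -0.07. None of 7 genes above the limit that respond to FGF signaling passed, from Spry2 with -0.33 to Etv5 with 0.24. Of the 7, 6 were below 0 and the median was -0.14. Over all 12331 genes, 5981 were below 0 and 6022 above. Whether FGF signaling differed was not tested. Among 10 other heparin-binding factors above the limit Igfbp3 was lower, at 12.32 and 11.30 with a difference of -1.02, and Hgf was highest with 0.52. Both probe sets of Igfbp3 were at least 2.03-fold lower.

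**Figure D3:**
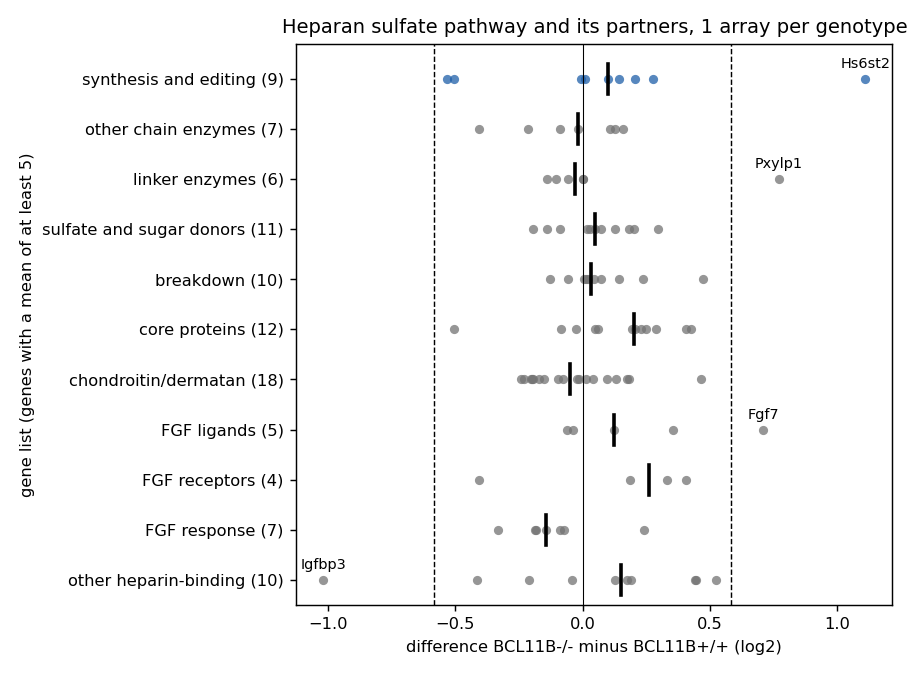
Difference between BCL11B-/- and BCL11B+/+ MEFs (horizontal axis, log2) for genes with a mean of at least 5 in 11 lists (vertical axis, number of genes in brackets), with 1 array per genotype. Each point is a gene, each bar the median of a list, and dashed lines mark 1.5-fold. Hs6st2, Pxylp1 and Fgf7 lie beyond the right line and Igfbp3 beyond the left.

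Hs6st2 lies on the X chromosome, and the arrays differed in sex-linked genes. Xist, the noncoding RNA made from the inactive X of female cells, read 10.80 in BCL11B+/+ and 4.80 in BCL11B-/- MEFs. The Y chromosome gave the opposite direction, with differences of 1.08 for Eif2s3y, 0.97 for Kdm5d and 0.81 for Uty. In BCL11B+/+ MEFs these Y-linked genes still read 7.89, 6.84 and 6.80, all above 5. The BCL11B+/+ array thus held signal of both Xist and the Y-linked genes. The 4 genes that escape X inactivation were all below 0, between -0.47 and -0.29. The sex makeup of the cultures and the genotype cannot be told apart with 1 array each. Other X-linked genes of the pathway were Gpc3 with -0.09, Gpc4 with 0.29 and Ids with 0.47, which encode 2 glypican core proteins and a lysosomal sulfatase. The second probe set of Gpc4 differed by 0.48 and that of Ids by 0.42. The dimmer ones of Ids, all under the limit of 5, gave 0.08 to 0.13. The neighbours of Hs6st2 were looked up after its value was known. On one side Mbnl3 differed by 0.25 and Rap2c by 0.10. On the other side Usp26 and 1700080O16Rik read under 5 on both arrays, followed by Gpc4 and Gpc3. None of the 4 measured neighbours above the limit (Mbnl3, Rap2c, Gpc4 and Gpc3) passed 1.5-fold.

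**Figure D4:**
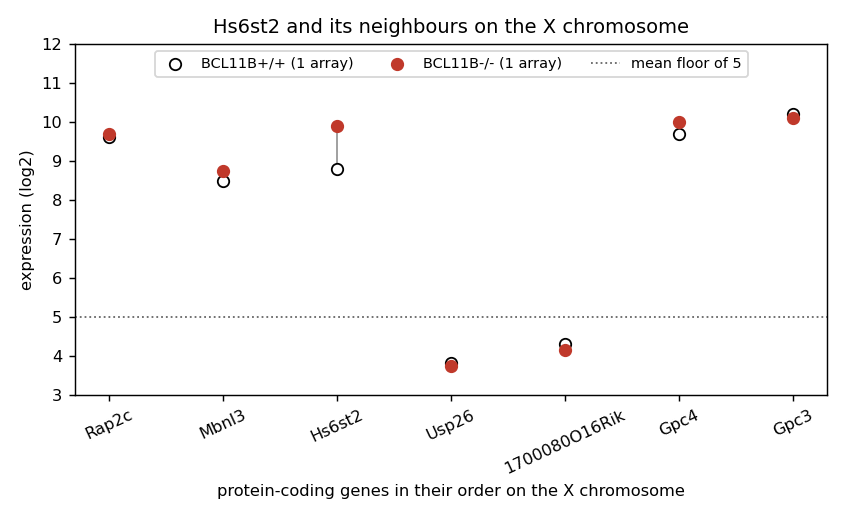
Expression on the log2 scale (vertical axis) of Hs6st2 and its nearest measured protein-coding neighbours in their order on the X chromosome (horizontal axis, not to scale) in BCL11B+/+ (open circles) and BCL11B-/- MEFs (filled circles), 1 array each. Hs6st2 shows the wide gap from 8.79 to 9.91, while Gpc4, the third gene to its right, goes from 9.70 to 9.99 and Gpc3 from 10.20 to 10.11.

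The cultures also differed in markers of other cell types, and their part in the enzymes' differences was not tested. Of 7 chondrocyte markers above the limit 6 were at least 1.5-fold higher in BCL11B-/- MEFs, among them Comp with 1.63 and Col2a1 with 1.29, and Matn1 and Cnmd were below it. The summed linear signal of the list was 2139 in BCL11B+/+ and 4060 in BCL11B-/- MEFs. This sum and those below take in every gene of a list with a probe set, also those below the limit. Of 8 smooth muscle markers 5 were higher, with a sum of 5996 and 9693. Of 10 macrophage markers 7 were lower and none was higher, with a sum of 4639 and 2744, and Aif1 was below the limit. Of 8 mesothelial markers 2 were lower, with a sum of 3468 and 2682. Of 5 adipocyte markers 2 were lower, Lpl with -0.97 and Pparg with -0.71, while Cebpa stood at -0.53, Fabp4 at 0.31 and Adipoq at 0.56. The sum of this list was 9521 and 5608, and without Lpl it was 1234 and 1384. Of 4 neural markers above the limit 1 was higher, and Dcx was below it, with a sum of 393 and 471. None of 2 endothelial and 3 epithelial markers above the limit passed the rule, and 5 further endothelial markers, among them Pecam1 and Cdh5, were below it. In bulk RNA, fewer cells of a type and less RNA per cell cannot be told apart.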

How the data were processed

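Total RNA of both MEF cultures was amplified from 100 ng and hybridized to Affymetrix arrays. The deposited values are log2 expression, made by the authors with the robust multi-array average (RMA), which corrects background, normalizes between arrays and summarises probes per probe set. The submitters' processing notes name R 3.0.3. Normalization between arrays hides a change of total mRNA, and background pulls differences of dim genes toward 0.

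Of 45101 probe sets, the annotation gave 1 gene for 34958, several genes for 932 and no gene for 9211. Of those with 1 gene, 34754 matched the RefSeq table of GRCm38.p6 by Entrez identifier. Impad1 was read as Bpnt2, its current symbol. Controls (64) were left out. Each gene was represented by the probe set of highest mean, and counts were made over genes whose mean reached 5. Named beside the 9 measured members are pathway list genes past 1.5-fold and the highest and lowest of each pathway list. Outside this rule stand Hs6st3, the X-linked genes of the pathway, the neighbours of Hs6st2 and genes that passed only under another choice of probe set. Of the cell type markers only some are named. Members and lists were chosen with earlier results of these data known, and Hs6st2's neighbours and the TATA box after values or sequences were seen. The counting code was checked on simulated arrays with planted changes larger than the 1.5-fold rule and little noise. That check does not measure how reliable counts from 1 array per genotype are. Alternatives were other choices of probe set, a median or loess (span 0.4) correction, other limits and other fold rules. Protein sequences, planned for comparison, were not used here. Promoter windows came from RefSeq. Python 3.11.15 was used with pandas 2.3.3, numpy 2.4.6, statsmodels 0.14.6 and matplotlib 3.10.9.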

Additional observations from a re-analysis of the deposited data

How the results depend on the processing

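With 1 array per genotype no alternative carries a test, and a value counted as moved when it changed by at least the probe set SD of 0.15. Of 44 alternative values of the 9 enzymes 38 moved by less and 6 by more. Many of them could not move that far. The median correction was 0 and the loess correction at most 0.014. Hs6st1, Ndst2 and Hs3st1 have 1 probe set each, so another choice of probe set gave the same value or none. The count of 38 is therefore no measure of stability. Hs6st2, the only enzyme past 1.5-fold, kept its sign, while the small differences of Ext2 and Ndst2 changed sign under some alternatives. As the mean over all probe sets the difference was 0.76 for Hs6st2, 0.033 for Ext1 and -0.15 for Ext2. With the probe set of largest weighted average difference it was -0.31 for Ext2 and 0.18 for Hs2st1. Without suffixed probe sets Sulf2 was at -0.15 and Hs3st1 had no value. The cause of these changes was not tested beyond the change of probe set. At 1.2-fold 2 enzymes were higher and 2 lower. Over all genes 1086 were higher and 962 lower at 1.2-fold, 43 and 62 at 2-fold, and 112 and 124 with a mean of at least 7, as looser or stricter rules give by construction. Hs6st2 stayed the only enzyme past 1.5-fold under each choice of probe set, centring and limit that was run. Apart from the mean over all its probe sets, every one of these settings read the same bright probe set (1450047_at). Its value there was nearly fixed in advance, so this is no measure of how reliable the difference is. Of 275 further values for the other lists 251 moved by less than the SD or stayed within 1.5 times their count and 24 did not. Here too the values with a median or loess correction could hardly move. As the mean over all probe sets neither Pxylp1 nor Fgf7 passed 1.5-fold, while Hgf did with 0.64. Hgf also passed without suffixed probe sets, with 0.75. With the probe set of largest weighted average difference Hgf (0.75), Cxcl12 (0.77) and Ust (-0.70) passed. No paired analysis was possible because each genotype has 1 array. Dim probe sets limit the reading of Ext1, Ext2 and the fourth probe set of Hs6st2.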
